A study of Rattus norvegicus with 2 samples.

Results

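The genes described here code for the proteins that carry out and regulate pre-mRNA splicing, and they were taken from the transcript annotation that was assembled from rat femur RNA. Members were found by gene name only, by the naming patterns of SR proteins (Srsf, Sfrs), hnRNP proteins (Hnrp, Hnrnp), snRNP proteins (Snrp), the U2 factors (Sf3a, Sf3b, U2af), the Prpf proteins, and the regulators Ptbp, Tra2, Mbnl, Celf and Rbfox. The rule found 37 of the 12567 named genes, with 150 of their 38614 transcript models, on 19 of the 21 sequences of the annotation. Each member stood on 1 locus, and no member locus carried the name of another gene.

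Removal of introns is performed by the spliceosome, in which the U1 snRNP marks the 5' splice site, U2 factors mark the branch point and the 3' splice site, and the U4/U6.U5 tri-snRNP then builds the catalytic centre. SR proteins mostly help exons to be included, and hnRNP proteins often repress exons or protect nascent RNA. Many of these genes are themselves alternatively spliced, and several of the proteins are known to control their own mRNA in this way.

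RNA came from frozen and ground femurs of female wild-type Wistar rats, in which both ovaries had been removed (OVX) or surgery had been performed without removal (SHAM). For each group the labels hold 1 rat at 16 weeks, with the added words old for OVX and young for SHAM. The methods of the paper state 3 rats per group and a feeding time of fewer weeks. Whether both times count from the same point is not known here. Removal of marrow is not mentioned in the sources used here, so bone, marrow and adhering tissue cannot be told apart in the RNA. No count, level or coverage is given for either rat in the files analysed here. The values below therefore describe which transcript structures were assembled, the sequencing depth is unknown, and OVX and SHAM were not compared. Of the tissue markers, 13 of 14 osteoblast and osteocyte genes, 4 of 6 marrow myeloid genes and 5 of 8 skeletal muscle genes had a model, and Mepe, Elane, Ltf and the myosins Myh1, Myh2 and Myh4 were not found by name.

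A transcript model is a chain of exons, and the files give each model a class against a reference annotation. A full-chain model has every intron of a reference transcript, a contained model is a fragment of one, a new-junction model shares at least 1 splice junction with a reference transcript but follows another chain, and a retained-intron model keeps a reference intron as exon. Each model is also recorded in 1 or both of the assemblies that were merged. The first and the second assembly could be told apart by the numbering of the models, but neither could be assigned to OVX or SHAM. Positions are those of the files. The submitters' notes name the build rn4, but the sequence names and the 4469 gene names that begin with rCG may belong to another rat assembly. The build was not checked against a genome here, so the positions hold only for the sequences of the files.

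The 37 members found by the rule matched a reference transcript in full more often than named genes at large. Such a match need not span the gene. In Prpf8, Hnrpr, Hnrpc and Prpf38a the only full chain had 2 exons, with 543, 443, 844 and 603 bp. A full-chain model was present in 25 of the 37 members (67.6%), against 38.6% of all named genes. At least 2 different reference transcripts were matched in full in 12 members (32.4%), against 6.46% of all named genes. A new-junction model was present in 23 members (62.2%), against 42.3% of named genes, and a retained-intron model in 2 members (5.41%), against 2.87%. All 37 members had transcripts in both assemblies, against 76.5% of named genes. Contained fragments alone were found for Sfrs9, Sfrs14 and Mbnl3 (8.11% of members, against 28.7% of named genes).

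Members also had more and longer models. The median was 4 transcripts per member against 2 per named gene, 9 exons against 5 in the model with the most exons, and 2146 bp against 1000 bp of exon in the longest model. Among genes with 3 or more transcripts, a full chain was present in 63.3% of 30 members and 28.6% of 5887 named genes, and a new-junction model in 76.7% and 65.4%. In these genes the share with a retained-intron model was 3.33% of members, which is 1 gene, against 4.35% of named genes. Introns kept in models of other classes are not in this share and are counted below. The share in both assemblies was 98.3% for named genes, so most of that gap was gone. The part of the number of models, gene length and of expression level in these differences was not tested, and no test was run on the shares because the members are a chosen list.

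**Figure D1:**
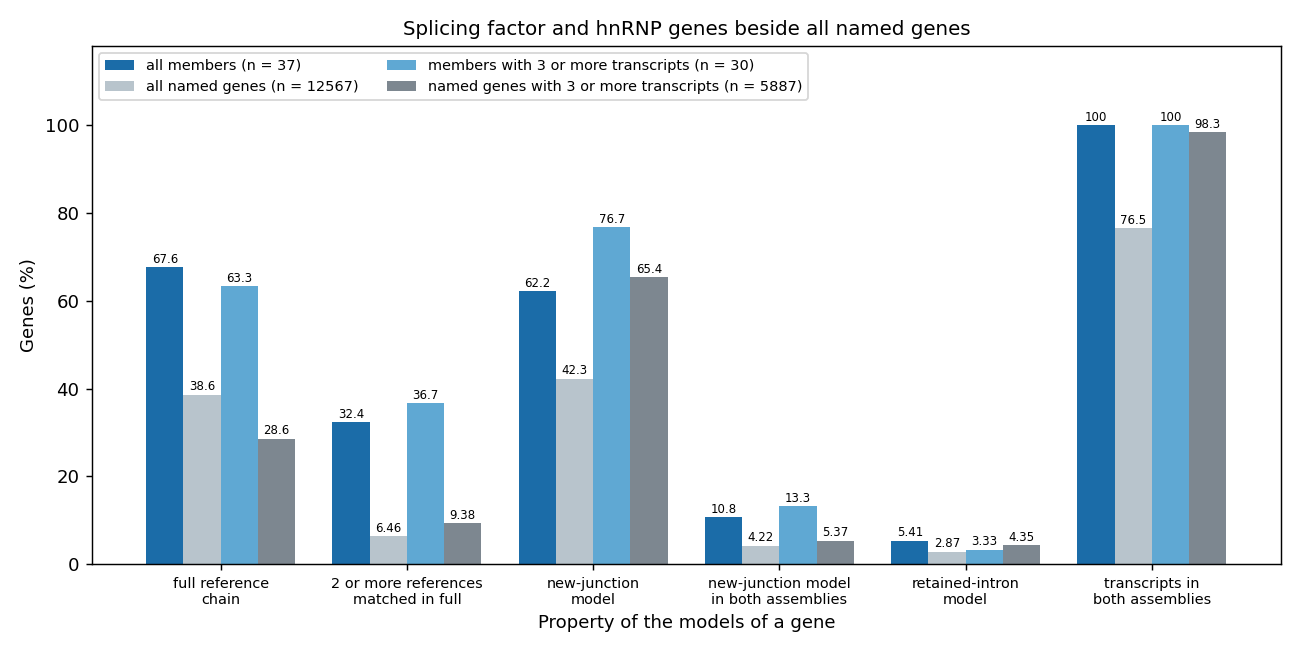
Percentage of genes (vertical axis) with each property of their models (horizontal axis), for the 37 splicing factor and hnRNP genes, all 12567 named genes, and both sets limited to genes with 3 or more transcripts. The bars of the members stand above those of named genes for full chains (67.6% against 38.6%) and for 2 or more references matched in full (32.4% against 6.46%), and the bars for retained introns are low in every set.

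Among the 150 models of the members, 52 were full chains (34.7%), 50 were contained fragments (33.3%), 46 had a new junction (30.7%) and 2 kept an intron (1.33%). Over all named genes, contained fragments made up 56.1% of models and full chains 15.4%. Both assemblies held 39 of the 150 models (26.0%), 56 were in the first only and 55 in the second only. For all named genes the share in both was 12.2%.

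**Figure D2:**
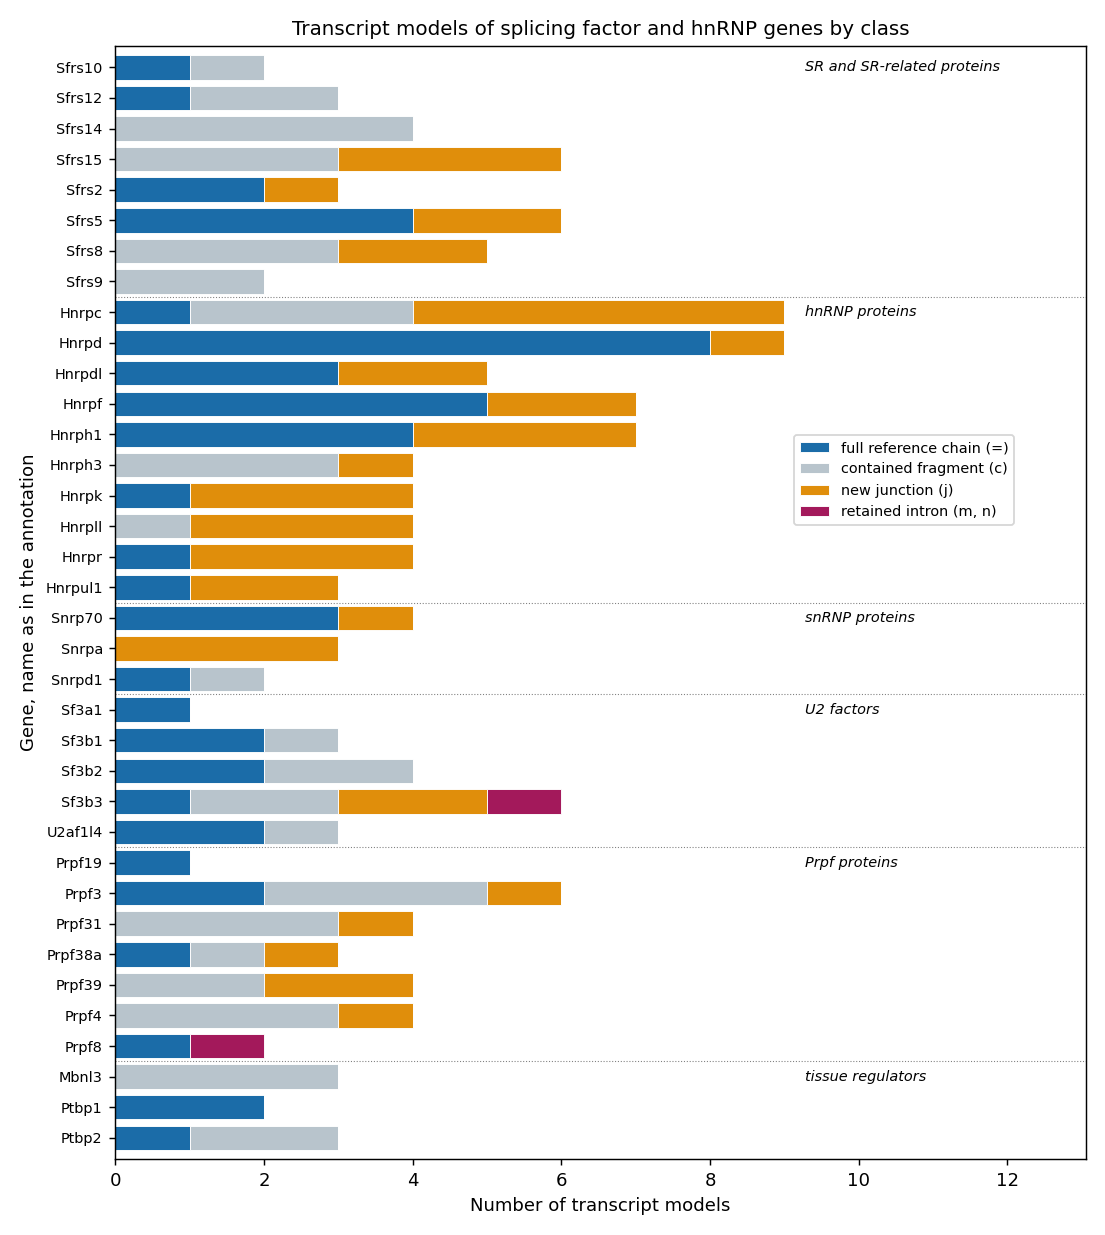
Number of transcript models (horizontal axis) of each of the genes (vertical axis), without 1 Prpf gene, with the classes as colours and the genes grouped by role. Hnrpd and Hnrpc have the most models, 9 each, and retained-intron models are seen in Sf3b3 and Prpf8.

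The 10 hnRNP genes held 56 models, the most of any role group, with a full chain in 8 genes and a new-junction model in all 10. Of these models 22 (39.3%) were in both assemblies, 8 of them in Hnrpd alone. The share was 33.3% for snRNP genes, 25.0% for tissue regulators, 17.6% for U2 factors, 16.1% for SR and SR-related genes and 13.8% for Prpf genes, beside the 12.2% of all named genes. Contained fragments were 11.1% of snRNP models, 12.5% of hnRNP models, 35.3% of U2 factor models, 48.4% of SR and SR-related models, 55.2% of Prpf models and 62.5% of regulator models.

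Hnrpd (Hnrnpd, also called AUF1; XLOC_012906, chromosome 14, 9716076 to 9734827, plus strand) codes for a protein that binds AU-rich elements of mRNAs. It had 9 models, and 8 of them were full chains of 8 different reference transcripts, each recorded in both assemblies. An exon of 57 nt (9718438 to 9718494) was present in 2 models and skipped in 4, and an exon of 147 nt (9731590 to 9731736) was present in 6 and skipped in 3. All 4 combinations of these exons were found in the long models, which measured 2156, 2099, 2009 and 1952 bp, and both lengths are multiples of 3. The known AUF1 protein isoforms differ by such an early and such a late exon. A group of 3 full-chain models began at an exon far downstream, at 9728292. The remaining model, in the second assembly only, ended in a separate last exon of 52 nt inside an intron of the other models.

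Its neighbour Hnrpdl, a paralogue with the same kind of RNA-binding domains, had 5 models on the same strand of chromosome 14 (XLOC_012905, 9659501 to 9664802). Full chains of 3 reference transcripts were in both assemblies, and 2 new-junction models were in 1 assembly each. In the second assembly the first exon ran on by 145 nt to another donor site, and in the first a model ended in an exon of 73 nt inside a known intron.

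Hnrpc (Hnrnpc; XLOC_013719, chromosome 15, 25083866 to 25113094, minus strand), whose protein binds uridine tracts of nascent RNA, had 9 models with 5 of the new-junction class. A donor site that adds 39 nt was used in 3 models and not in 4 others, with both forms in both assemblies. This is a difference of the kind that separates the known C1 and C2 proteins. A donor shift of 108 nt was seen between models of the first assembly. At another intron 3 acceptor sites were used, which differ by 3, 21 and 24 nt in pairs. An exon of 710 nt that was present in 2 models and skipped in another was seen in the second assembly only.

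Hnrpf and Hnrph1 code for related proteins that bind runs of guanine. Hnrpf (Hnrnpf; XLOC_004747, chromosome 4, 139958683 to 139979931, plus strand) had 7 models in 5 groups of start sites, with full chains of 5 reference transcripts. These chains had 3 or 4 exons, and the donor of the leading exon was shifted by 370, 44 and 29 nt between pairs of models. The 370 nt form was a new-junction model of 2387 bp recorded in both assemblies. Hnrph1 (Hnrnph1; XLOC_009958, chromosome 10, 34042690 to 34051963, plus strand) had 7 models with 4 full chains, the longest with 14 exons and 2186 bp in the second assembly only. In its 3 new-junction models every intron was also present in a full-chain model, and 1 of them kept an intron of 91 nt (34049178 to 34049268). The related gene Hnrph3 had 3 contained fragments and a new-junction model, and its donor sites differed by 45 nt.

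Hnrpk (Hnrnpk; XLOC_014390, chromosome 17, 6372806 to 6384654, plus strand) codes for a protein that binds cytosine-rich RNA. Its full chain had 16 exons and 2688 bp in both assemblies. A new-junction model of 17 exons and 2813 bp was also in both and began upstream of the full chain. It used an acceptor 60 nt upstream for the last exon, a site also used by 1 of the 2 models in the first assembly only. These latter models had 17 and 18 exons and differed at this acceptor and by an intron of 137 nt, kept in the former. The locus also held an intronic model without a gene name.

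Hnrpr, Hnrpll and Hnrpul1 completed the group. Hnrpr (Hnrnpr; XLOC_005756, chromosome 5, 146943732 to 146974621, plus strand) had 4 models, of which 2 new-junction models of 579 and 1047 bp were in both assemblies, more than in any other member. The former began with an exon of 163 nt inside a known intron. Its longest model had 6 exons, and its full chain had 2 exons and was in the second assembly only. Hnrpll, whose protein controls exon use of the CD45 mRNA in lymphocytes, had 3 new-junction models of 8 or 9 exons and a contained fragment of 303 bp. Hnrpul1 had a full chain of 15 exons in both assemblies and 2 new-junction models in the first only, which differed from it at a donor by 106 nt or at an acceptor by 3 nt.

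**Figure D3:**
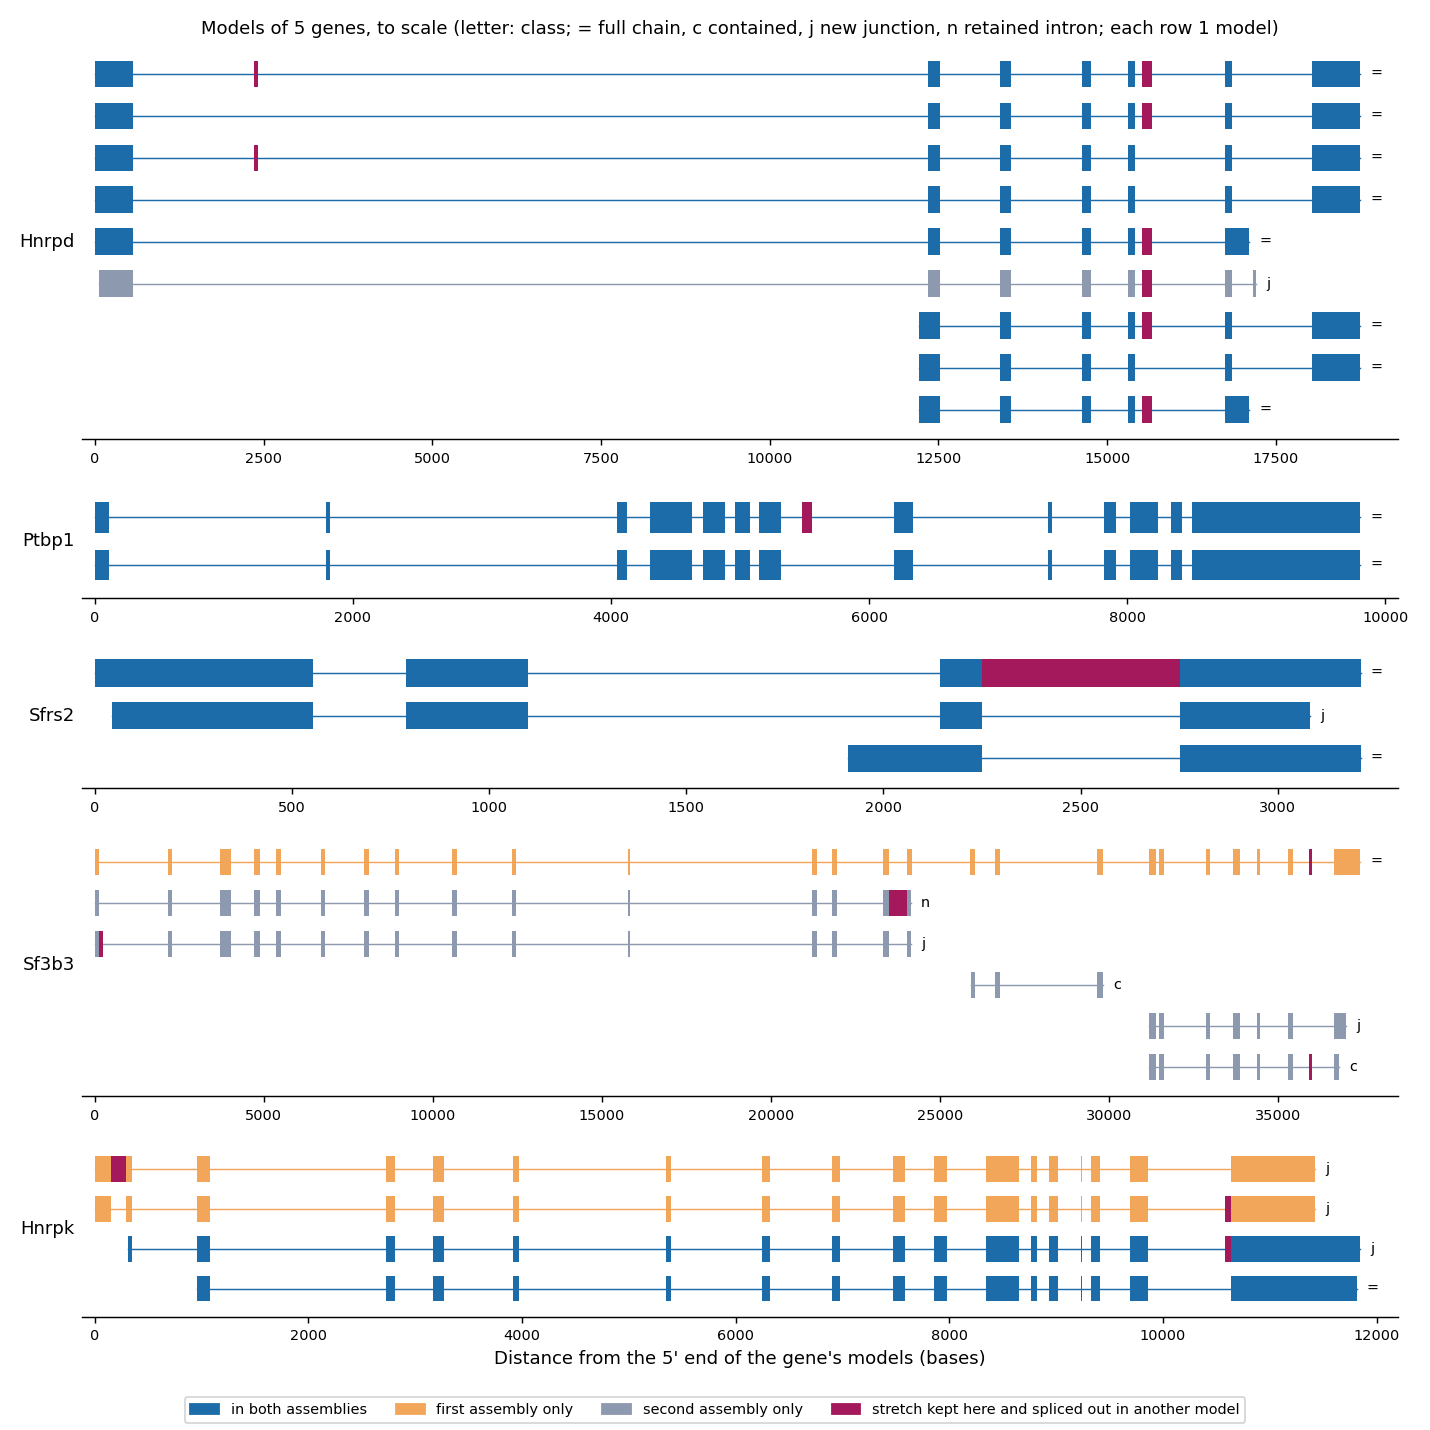
Exons (boxes) and introns (lines) of every model of Hnrpd, Ptbp1, Sfrs2, Sf3b3 and Hnrpk against the distance from the 5' end of the gene's models in bases, with the colour giving the assemblies and the letter the class. The marked stretches are kept in the model shown and spliced out in another model of that gene, such as the 57 nt and 147 nt exons of Hnrpd, the 78 nt exon of Ptbp1, the 502 nt intron of Sfrs2 and the 554 nt intron of Sf3b3.

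The name pattern of SR proteins found 8 genes, of which 4 are classical SR or Tra2 genes and 4 are related genes that carry another symbol today. The classical genes were Sfrs2, Sfrs5, Sfrs9 and Sfrs10. Sfrs2 (Srsf2, also called SC35; XLOC_011189, chromosome 10, 100620617 to 100623826, minus strand) had 3 models, all in both assemblies. A full chain of 3 exons and 1931 bp kept an intron of 502 nt (100621075 to 100621576) in its last exon, and the other full chain (798 bp) and the new-junction model (4 exons, 1257 bp) spliced it out. Every intron of the new-junction model was present in a full chain, so its chain was new and its junctions were not. Splicing within the last part of its own mRNA is a known way in which the SRSF2 protein limits its amount.

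Sfrs5 (Srsf5; XLOC_006654, chromosome 6, 98461130 to 98465890, plus strand), an SR protein gene first described in regenerating liver, had 6 models from 1 group of start sites. Full chains of 4 reference transcripts were found, and the one of 8 exons and 1496 bp was in both assemblies. The full chain of 7 exons and 2726 bp kept an intron of 1230 nt and was in the second assembly only. Its first exon ended at 3 donor sites, which differ by 4, 125 and 129 nt in pairs. Sfrs10 (Tra2b), which binds purine-rich exon enhancers, had a full chain of 9 exons in the first assembly and a contained fragment of 8 exons in the second, and 7 of its 8 introns were in both. Sfrs9 (Srsf9) had 2 contained fragments of 405 and 577 bp with 1 of 3 introns in both assemblies.

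The related genes were Sfrs8 (Sfswap), Sfrs12 (Srek1), Sfrs14 (Sugp2) and Sfrs15 (Scaf4). Sfrs15 (XLOC_011515, chromosome 11, 29152357 to 29208151, minus strand) codes for a protein that binds the tail of RNA polymerase II. It had 6 models, none in both assemblies, yet 16 of its 19 introns were in both (84.2%). The longest, in the first assembly, had 17 exons and 3600 bp, and in the second that stretch was covered by separate models of 13 and 4 exons. Sfrs8 had 5 models with 11 of 18 introns in both assemblies. Sfrs12 had a full chain of 7426 bp in both, which kept stretches of 852 and 1141 nt that a contained fragment spliced out. Sfrs14 had 4 contained fragments without an intron in common between the assemblies.

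The 3 snRNP genes were Snrp70, Snrpa and Snrpd1. Snrp70 (Snrnp70; XLOC_001384, chromosome 1, 90112416 to 90132764, minus strand) codes for the U1-70K protein of the U1 snRNP and had full chains of 3 reference transcripts, all in both assemblies, the longest with 10 exons and 1614 bp. All of its 10 introns were in both. Snrpa, the gene of the A protein of the U1 snRNP, had 3 new-junction models and no full chain, and 5 of 7 introns were in both assemblies. Its models in the second assembly measured 893 and 896 bp and differed by an acceptor shift of 3 nt. An exon of a model on the opposite strand overlapped those of Snrpa, and whether strand was marked in the libraries is not known here, so reads of both may be mixed. Snrpd1, a subunit of the Sm ring that surrounds snRNAs, had a full chain of 4 exons in the second assembly and a contained fragment in the first.

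All 5 genes of U2 factors had a full chain. Sf3b1, Sf3b2, Sf3b3 and Sf3a1 are subunits of the U2 snRNP that holds the branch point, and U2af1l4 is a paralogue of the small U2AF subunit, which recognises the end of the intron. Sf3a1 had a full chain of 16 exons and 5019 bp as its 1 model, found in both assemblies. Sf3b1 had a full chain of 25 exons and 6098 bp in the second assembly and a contained model of 23 exons in the first, with 22 of 24 introns in both. Sf3b2 had its longest full chain in the first assembly, with 20 exons and 3218 bp, and 18 of 19 introns in both. U2af1l4 had 2 full chains in the first assembly, which differed in an intron of 76 nt, and a fragment in the second.

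Sf3b3 (XLOC_015702, chromosome 19, 38176353 to 38213797, minus strand) held 1 of the 2 retained-intron models. The first assembly covered the gene with a full chain of 26 exons and 4461 bp. The second covered it with 5 shorter models, 1 of which had 14 exons and 2690 bp and kept an intron of 554 nt (38189756 to 38190309). All 13 introns of that model were in the full chain. The intron was spliced out in the full chain and in a new-junction model of the second assembly, so both forms were seen in that assembly. The length of 554 nt is not a multiple of 3. A new-junction model of 7 exons skipped an exon of 105 nt, and another of 15 exons used a donor that adds 117 nt. Both were in the second assembly only.

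The 8 Prpf genes ranged from no shared intron to every intron shared between the assemblies. Prpf8 (XLOC_010144, chromosome 10, 59359829 to 59382935, plus strand), the core protein of the U5 snRNP, had a retained-intron model of 42 exons and 7248 bp, the most exons of any member, and a short full chain of 2 exons and 543 bp. Both models and all 41 introns were in both assemblies. The intron that the long model keeps could not be named, because only 1 of its 41 introns was in another model of the gene. Prpf19, the ubiquitin ligase of the complex that bears its name, had a single full chain of 16 exons and 2146 bp in both assemblies. Prpf3, a protein of the U4/U6 snRNP, had 6 models with a new-junction model of 15 exons in the first assembly, and 11 of 14 introns were in both.

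The other Prpf genes had no transcript in both assemblies. Prpf31 and Prpf4, both of the tri-snRNP, had 7 of 13 and 4 of 11 introns in both. Prpf38a had 3 of 9, with donor sites that differed by 2 nt, and Prpf39 had none of 8 in both.

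Ptbp1, Ptbp2 and Mbnl3 were the regulators found by the rule. Ptbp1 (XLOC_007759, chromosome 7, 8017258 to 8027064, minus strand), a repressor that binds pyrimidine tracts, had 2 full chains of 14 and 13 exons, and both were in both assemblies. They measured 2945 and 2867 bp and differed by an exon of 78 nt (8021509 to 8021586), a multiple of 3. Ptbp2, its paralogue known from neurons, had 3 models and Mbnl3, a muscleblind protein, had 3 contained fragments, and neither gene had an intron in common between the assemblies.

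Introns were shared between the assemblies far more often than whole models. The members had 465 distinct introns, of which 349 were in both assemblies (75.1%), 73 in the first only and 43 in the second only. For all named genes 53.7% of 98041 introns were in both. By gene, the median share was 77.8% for the members and 41.2% for the 11732 named genes with an intron. Every intron was shared in Sfrs2, Snrp70, Sf3a1, Prpf19, Prpf8 and Ptbp1, and no intron was shared in Sfrs14, Prpf39, Mbnl3 and Ptbp2. Among the 18 members without a transcript in both assemblies, the intron share was highest in Sfrs10, Sfrs15 and Sf3b3, at 87.5%, 84.2% and 85.2%. It was 28.6% in U2af1l4, 33.3% in Sfrs9 and Prpf38a, and 36.4% in Prpf4. The genes with no shared intron also belong to these 18, and the rest lay between 36.4% and 84.2%.

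**Figure D4:**
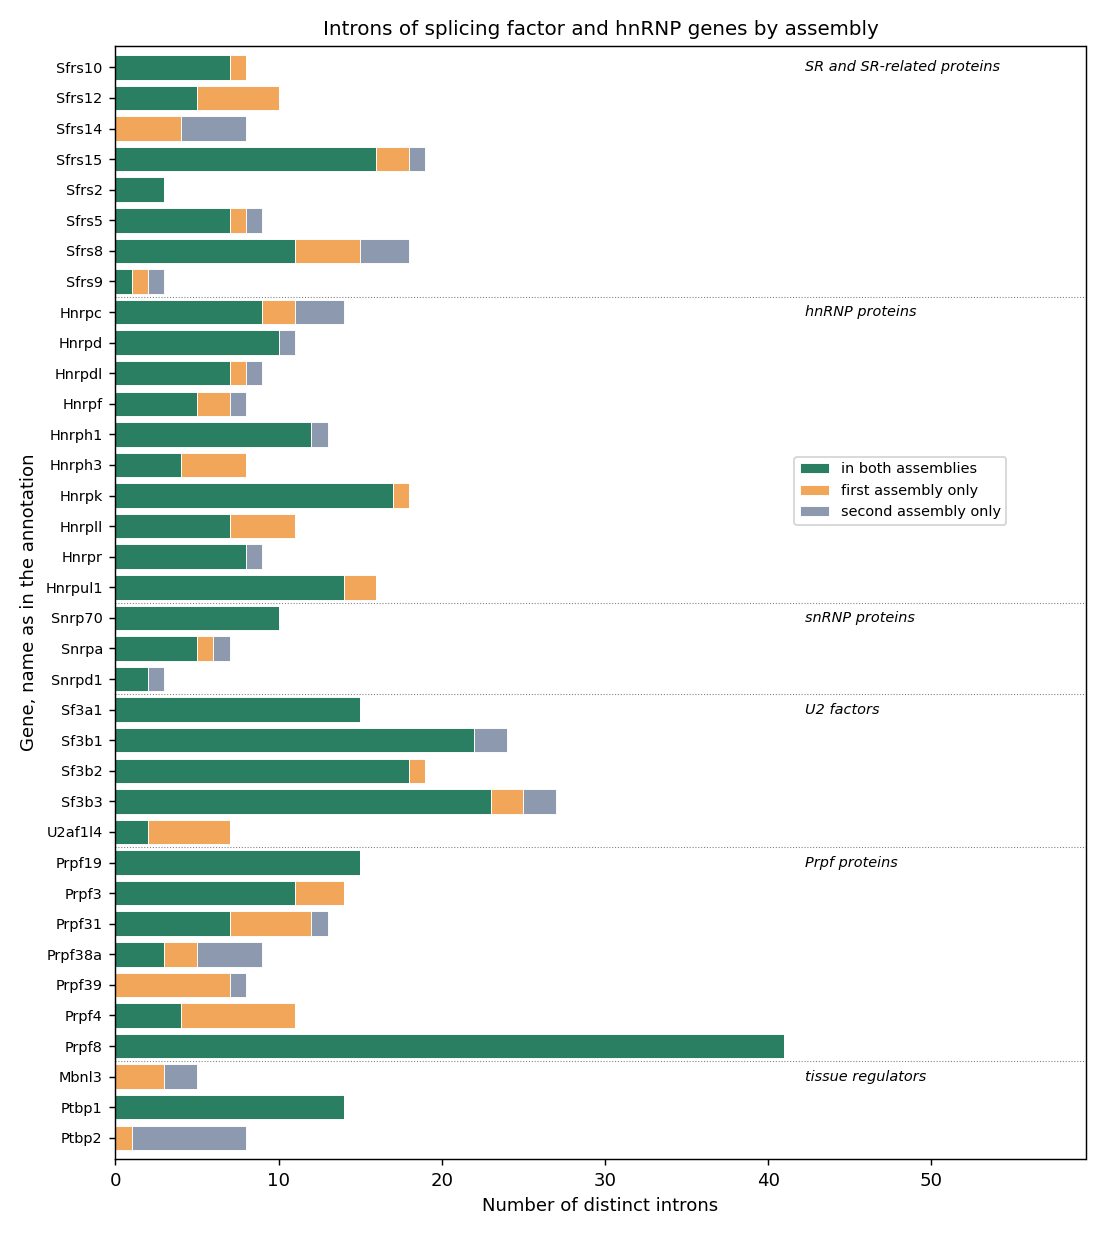
Number of distinct introns (horizontal axis) of each of the genes (vertical axis), without 1 Prpf gene, split by the assemblies whose models contain them. Most introns of most genes are in both assemblies, all 41 of Prpf8 among them, whereas Ptbp2, Mbnl3, Prpf39 and Sfrs14 have none in both.

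New-junction models rarely recurred as whole chains, while their introns, known ones among them, mostly did. Of the 46 such models 5 were in both assemblies (10.9%), in Sfrs2, Hnrpf, Hnrpk and Hnrpr. These are 4 of the 37 members (10.8%), against 4.22% of all named genes. Of the 206 distinct introns in new-junction models, 169 were in both assemblies (82.0%), against 61.1% for all named genes. Counted once per model, 220 of 334 introns (65.9%) were also in a full-chain or contained model of the gene. How often the rest were in both assemblies was not counted. In 9 new-junction models every intron was also in a full-chain or contained model of the gene, and in 18 exactly 1 intron was not. Of the 114 introns without such a match, counted once per model, 88 lay where the gene has no full-chain or contained model, as in Hnrpll and Snrpa. They may be known introns, because the reference annotation itself was not used here. An exon inside an intron of a full-chain or contained model was found in 5 new-junction models (10.9%), near the 8.34% of 9873 in all named genes.

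Comparing the models of each gene with each other gave 33 differences in 17 members: 5 skipped exons, 13 alternative donors, 7 alternative acceptors and 8 kept introns. Where a gene used 3 sites, each pair was counted. At least 1 difference was found in 45.9% of members and 14.8% of named genes, and members had more models to compare. A kept intron was found in 7 members (18.9%), against 4.41% of named genes. Of these 7 members, Sf3b3 alone had it in a model of the retained-intron class. Of the 25 exons, donors and acceptors, 16 had a length that is a multiple of 3, and in all named genes this held for 62.1% of 1939. By kind this held for all 7 acceptor shifts of the members, 3 of them pairs at the same Hnrpc intron, for 4 of 5 skipped exons and for 5 of 13 donor shifts. In all named genes it held for 68.4% of acceptor shifts, 64.9% of skipped exons and 47.6% of donor shifts, which is the same order. The files give no coding frame, so the effect on a protein was not computed. In 8 of the 33 both forms were in both assemblies (24.2%, against 14.4% for named genes), in Sfrs2, Hnrpc, Hnrpd, Hnrpf, Hnrpk and Ptbp1. The 2 kinds of stretch went opposite ways. This held for 7 of the 25 exons, donors and acceptors (28.0%, against 11.2%) but for 1 of the 8 kept introns (12.5%, against 23.5%).

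**Figure D5:**
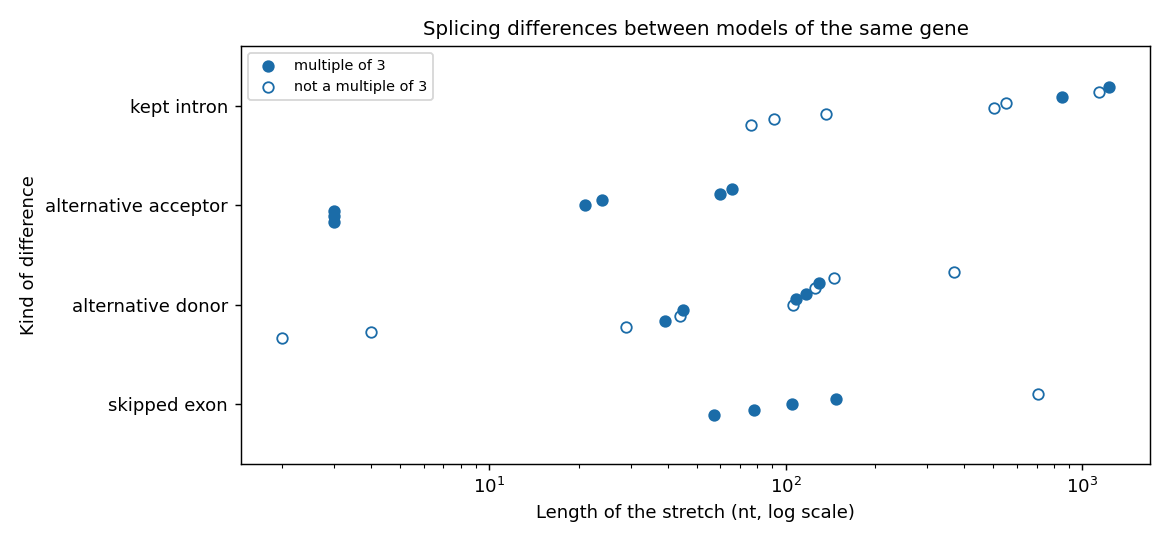
Length in nt (horizontal axis, log scale) of each of the 33 stretches that 1 model of a member keeps and another splices out, by kind of difference (vertical axis), with filled points for multiples of 3. All 7 acceptor shifts and 4 of 5 skipped exons are filled (68.4% and 64.9% in all named genes), and the kept introns range from 76 to 1230 nt.

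Other genes of the splicing machinery, from a list of 71, were found in 48 cases. A full chain was present in 26 of them (54.2%, against 38.6% of all named genes), a new-junction model in 24 (50.0%, against 42.3%) and a retained-intron model in 2 (4.17%, against 2.87%), Clk1 and Rbm5. Clk1 codes for a kinase of SR proteins whose own transcripts are known to keep introns. Transcripts in both assemblies were found for 45 of the 48 (93.8%, against 76.5%). Of their 187 models 13.4% were in both, near the 12.2% of all named genes, and 26.0% of the members' models were. All 9 helicases of the list were found, with 51 models of which 5.88% were in both assemblies.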

How the data were processed

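Total RNA of ground femurs was sequenced by the authors, and the labels list FastQC, HISAT2, StringTie and featureCounts and the build rn4, without versions. The deposited files hold transcript and exon positions with classes as gffcompare writes them, and 1507 new genes, none of which lay within 5 kb of a member. They hold no value of a sample, so no test was run and no group was compared. Other than these positions and attributes, no unit is given.

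Names were matched without regard to case and without the endings for predicted or mapped genes. The members and lists were chosen with earlier results of these data known. Of 37 names, 18 are current GRCr8 symbols, 18 older symbols of 1 gene and 1 neither. Of 93 protein-coding GRCr8 symbols of the rule, 31 were found under a member name, 12 under another name and 50 under neither by the table, Srsf1, Srsf3, Hnrnpa1 and U2af1 among them. The 50 include Hnrnpll, because the table does not give its older symbol Hnrpll, the member with neither. The annotation holds 4469 names that begin with rCG, and a gene not found may be present under such a name.

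Sequences were assigned to chromosomes by the current symbols on them. A return from minus to plus strand in the numbering started the second assembly. A skipped exon was called where the outer splice sites around it formed 1 intron of another model. A donor or acceptor difference needed 1 shared intron end and overlapping exons at the other end. A kept intron needed only to lie inside 1 exon of another model, also a first or last exon, without a shared splice site. On artificial pairs of models, the code returned the right result for 200 of 200 genes. Each pair had the same ends and at most 1 difference. Fragments with differing ends and genes with more than 2 models were not simulated, so calls in such cases were not checked. Members named are those with retained introns or shared new junctions and the 3 with the most transcripts per role, and the rest were added after their values were seen, while 1 member enters the counts but is not reported by name here. No genome of the files' build was used, so no exon sequence is printed. Python 3.11.15 and matplotlib 3.10.9 were used.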

Additional observations from a re-analysis of the deposited data

How the results depend on the processing

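Full chains found in both assemblies were present in 45.9% of members instead of 67.6%, and new-junction models found in both in 10.8% instead of 62.2%, by the stricter requirement. Without contained fragments the share of models in both assemblies was 38.0% instead of 26.0%. The share with a retained-intron model, which rests on 2 genes, was 5.41% and fell to 2.7% with class m only and to 3.33% in members with 3 or more transcripts. The share of new-junction models with an exon inside a known intron, 10.9%, became 1 of 5 when limited to models in both assemblies. The stricter requirement and the removal of contained fragments moved their shares outside the exact 95% binomial interval of the reported share. The retained-intron and exon-inside shares stayed within it, but it is wide for so few genes and models, so this says little about their stability. The other results stayed within it, or within 1.5 times a count or median, under the other alternatives, such as leaving out the regulators or keeping only members with 3 or more transcripts. The interval served only as a yardstick, because the members are a chosen list. Leaving out transcripts with 1 exon and joining by locus changed no value, because no member has such a transcript or a second locus, so neither says anything about stability. With names brought to current symbols the rule gave 44 genes instead of 37. With the 12 genes under other names added, a choice made after seeing the data, 57.1% of 49 genes had a full chain. A new-junction model was present in 67.3% of the 49, and 22.8% of their 189 models were in both assemblies. Of the 12 added genes themselves, Celf1, Prpf6 and Srsf4 alone had a full chain. No paired analysis was possible because neither rat has values of its own. With 1 rat per group in the labels, leaving out a replicate could not be done. Depth is unknown, so a model that is missing may have been below what the reads could show.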

Other observations

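Of the splicing genes whose current symbol fits the name patterns, 12 stood in the annotation under another name and were picked once the members' values were known. They were Celf1 (as Cugbp1), Celf2 (as Cugbp2), Celf5, Hnrnpul2, Prpf6, Prpf18, Prpf40b, Ptbp3 (as Rod1), Rbfox2 (as Rbm9), Srsf4, Srsf10 (as Fusip1) and Tra2a. Celf1 and Celf2 code for regulators of alternative splicing and mRNA decay that bind GU-rich RNA. Celf1 had 7 models, 6 of the new-junction class and 1 full chain, and Celf2 had 6 models, 5 of the new-junction class, and neither gene had a model recorded in both assemblies. Rbfox2, a regulator known from muscle and brain, had 2 new-junction models and a contained fragment. Srsf4 had a single model, a full chain in both assemblies. Srsf10 had 3 new-junction models, 1 of them in both. Prpf6, which joins the tri-snRNP, had 1 full chain and 3 new-junction models. Of the 12 genes, Celf5 alone was not found in both assemblies.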
